A study of Caenorhabditis elegans with 2 samples.

Results

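The loci examined here were the genes for small nucleolar RNAs (snoRNAs) of the nematode Caenorhabditis elegans, both those that lie in introns of protein-coding genes and those that stand alone. Every nuclear gene of the biotype snoRNA in Ensembl release 115 (assembly WBcel235, the assembly that ce11 names) was taken with 250 bp on either side, which gave 346 loci among 46890 nuclear genes. A locus was counted as marked when the summit of a ChIP-seq peak of the transcription factor MXL-1 lay in it, and 63 of the 346 loci were marked in the authors' thresholded peak list. Binding was mapped in whole hermaphrodite young adults of strain OP537, at 67 hours from the synchronised starved L1 stage. The genotype is given as unc-119(tm4063) III; wgIs537, a stably expressed transgene in which MXL-1 carries a C-terminal GFP-FLAG tag. Per the description the immunoprecipitation used an antibody against GFP (the antibody field itself names mxl-1), so the data concern the tagged protein in all tissues together. The 2 biological replicates form 1 group and share strain, stage and antibody. No untagged strain and no control library was analysed here, so the signal at these loci without tagged MXL-1 is not known, and no conditions could be compared.

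snoRNAs are short nuclear RNAs that guide chemical modification of ribosomal RNA and other RNAs. The box C/D class guides methylation of the ribose and the box H/ACA class guides the change of uridine to pseudouridine, each within a particle of partner proteins. Many snoRNAs are cut out of the introns of host transcripts, while others are transcribed from promoters of their own by RNA polymerase II or III. RNA polymerase III is directed to tRNA genes by elements inside the gene called box A and box B, and it ends transcription at runs of T. MXL-1 is related to Max, and proteins of that family recognise the E-box CACGTG as dimers.

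The peak lists used were those on ce11, with 557 peaks in the thresholded list (550 of them nuclear), 14200 in the list called on both replicates together, 20313 in replicate 1 and 21882 in replicate 2. The last 3 are labelled as peaks and background, so a weak entry need not be a binding site. All 557 thresholded peaks were among the 557 strongest pooled ones, so the threshold acts as a signal limit. Signal is the authors' value for each peak on a scale that is not stated, and its values are compared only inside a list. Read depth was not given, and the exact 95% intervals below (Clopper-Pearson) cover the counting of loci only.

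The upstream sequences of 8 loci are printed as examples. Each line gives 110 bases before the gene and its first 15 bases, 5′ to 3′ on the strand of the snoRNA gene, from RefSeq on WBcel235 (ce11). Capitals mark matches to patterns called here the looser box A and the looser box B. The first is TGG, 3 bases of any kind, A, 2 or 3 bases of any kind, and GG. The second is GTTCNANNC. Their letters were written after the sequences of marked loci had been read. The looser box A drops the GT that ends the strict form searched below, TGGNNNAGT, but requires GG. Neither form of box A therefore contains the other. Of all 63 marked loci, 21 held both elements as the pair defined below and 20 held neither, so the lines over-represent the pair. The first lines are 5 marked loci in which both elements stand before the gene, 2 in same-strand introns, 1 outside genes and 2 in opposite-strand introns.
C51F7.3 (chrV:12303598-12303722, plus strand): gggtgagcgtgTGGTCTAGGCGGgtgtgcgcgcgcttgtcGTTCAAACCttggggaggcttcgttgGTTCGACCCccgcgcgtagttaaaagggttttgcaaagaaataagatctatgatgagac
F55A11.10 (chrV:11782882-11783006, plus strand): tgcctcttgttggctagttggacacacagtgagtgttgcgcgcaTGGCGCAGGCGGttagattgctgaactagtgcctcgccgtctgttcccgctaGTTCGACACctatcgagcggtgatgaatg
W03C9.9 (chrII:11960788-11960912, plus strand): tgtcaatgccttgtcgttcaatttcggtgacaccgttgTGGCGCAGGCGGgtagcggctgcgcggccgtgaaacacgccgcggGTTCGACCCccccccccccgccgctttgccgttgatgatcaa
T03F7.8 (chrV:11314148-11314272, plus strand): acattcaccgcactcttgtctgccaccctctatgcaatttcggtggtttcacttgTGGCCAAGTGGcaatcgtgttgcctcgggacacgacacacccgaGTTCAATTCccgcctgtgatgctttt
C04G6.12 (chrII:5105217-5105341, minus strand): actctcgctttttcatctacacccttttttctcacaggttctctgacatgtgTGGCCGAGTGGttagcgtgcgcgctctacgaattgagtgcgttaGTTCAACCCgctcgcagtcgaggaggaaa
In C51F7.3 a second box B match lies between the elements. The next line is a locus with both elements whose peak fell just short of the thresholded list.
ZK546.18 (chrII:4942505-4942629, minus strand): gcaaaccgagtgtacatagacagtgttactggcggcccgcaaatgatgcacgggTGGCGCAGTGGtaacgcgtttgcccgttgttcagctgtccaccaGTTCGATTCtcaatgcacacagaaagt
The last lines are a marked locus with a box A match alone and the locus of the strongest nuclear peak, which holds neither element.
T06C12.16 (chrV:15873912-15874036, minus strand): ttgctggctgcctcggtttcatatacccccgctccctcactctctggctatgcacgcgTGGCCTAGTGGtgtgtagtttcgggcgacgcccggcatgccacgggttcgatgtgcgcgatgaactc
ZK994.7 (chrV:8500469-8500593, plus strand): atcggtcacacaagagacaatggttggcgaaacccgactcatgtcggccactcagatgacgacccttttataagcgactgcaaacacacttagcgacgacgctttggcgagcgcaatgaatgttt

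A thresholded summit lay in 63 of 346 snoRNA loci (18.2%, 95% interval 14.3 to 22.7). The same count over all nuclear genes, each with the same margin, gave 2.33%, and over consecutive 600 bp windows of the nuclear genome 0.326%, beside a median length of 630 bp for the snoRNA loci. The 63 loci held 62 summits, since the neighbours C51F7.3 and C51F7.4 share 1, and no locus held more than 1. Each replicate gave almost the same count by itself. Of the 557 strongest peaks of each, summits lay in 62 loci in replicate 1 and in 62 in replicate 2 (17.9% each), against 2.16% and 2.23% of all nuclear genes. The replicates shared 54 of these loci, and all 54 were among the 63.

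The longer lists, which include background, marked more loci of every kind. The pooled list had a summit in 140 snoRNA loci (40.5%, 35.2 to 45.8) against 22.5% of all nuclear genes and 8.05% of the windows. Replicate 1 had one in 150 loci (43.4%) against 28.3% of genes and 11.4% of windows, and replicate 2 in 156 loci (45.1%) against 30.2% and 12.3%.

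Taken over all loci, the position of a snoRNA gene relative to protein-coding genes made no difference that these counts could resolve. In introns of a host on the same strand, where the snoRNA could be cut from the host transcript, 24 of 145 loci were marked (16.6%, 10.9 to 23.6). In introns of a gene on the opposite strand, from whose transcript the snoRNA cannot be cut, 7 of 27 loci were marked (25.9%, 11.1 to 46.3). Of the loci that overlap an exon of a protein-coding gene 7 of 50 were marked (14.0%, 5.82 to 26.7), and of those outside protein-coding genes 25 of 124 (20.2%, 13.5 to 28.3). These intervals overlap. The strongest peaks of replicate 1 marked 25, 7, 6 and 24 loci of the classes in this order, and those of replicate 2 marked 26, 7, 5 and 24.

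**Figure D1:**
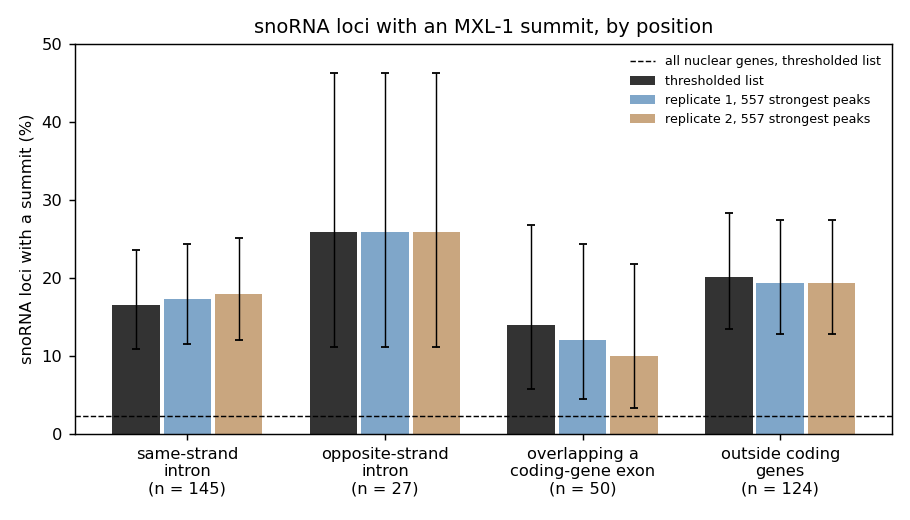
Share of snoRNA loci with a summit (percent) in 4 position classes, for the thresholded list and for the 557 strongest peaks of each replicate; bars are shares, whiskers exact 95% intervals over loci, and the dashed line is the share of all nuclear genes in the thresholded list. All 4 classes lie above the line at 2.33% in each list, and their intervals overlap one another.

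Most summits stood just before the snoRNA gene. Positions are counted on the strand of the snoRNA gene from its first base, with negative values upstream. The median summit lay at -29 bp (quartiles -50.5 and 10.5 bp, range -94 to 312 bp). At 44 of 63 loci it was upstream of the gene (69.8%, 57.0 to 80.8), and all 44 were within 100 bp of its first base. At a further 12 loci the summit lay inside the gene and at 7 beyond its end. The medians were -23 bp in same-strand introns, 7 bp in opposite-strand introns, -37 bp at loci overlapping an exon and -42 bp outside genes, where 21 of 25 summits were upstream. In the strongest peaks of replicate 1 the overall median was -34.5 bp, with 48 of 62 upstream, and in replicate 2 it was -29 bp, with 40 of 62 upstream.

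**Figure D2:**
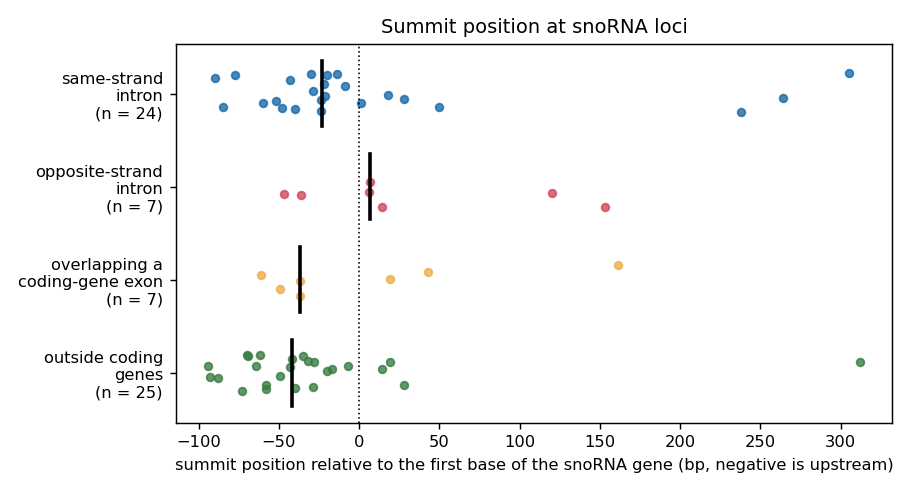
Position of the thresholded summit relative to the first base of the snoRNA gene (bp, negative is upstream) at the 63 marked loci; each point is a locus, displaced vertically at random, and the black bar is the median of its class. Most points lie between -94 bp and the gene start in every class but that of opposite-strand introns, where 2 of 7 are upstream.

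Genes for tRNAs, which carry box A and box B inside the gene, were compared at the same margin. A thresholded summit lay in 303 of 612 tRNA loci (49.5%, 45.5 to 53.5), with a median position of 25 bp and 27.4% of summits upstream (22.4 to 32.8). That interval does not overlap the one for snoRNA loci, 57.0 to 80.8%; neighbouring tRNA genes can share a summit, so the tRNA loci are not independent of one another. At genes for snRNAs, the RNAs of the spliceosome, 10 of 129 loci were marked (7.75%, 3.78 to 13.8). Of the 63 marked loci, C16D9.10 had a tRNA gene within 250 bp of its summit, and none had an snRNA gene there. At 21 of the 63 marked loci the summit lay in the promoter window of a protein-coding gene (1000 bp upstream to 200 bp downstream of a transcript start), 8 of them in same-strand introns, 0 in opposite-strand introns, 3 at exon overlaps and 10 outside genes. The share of the other thresholded peaks in such windows was not counted, so whether this count is high or low is not known.

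The signal at snoRNA loci stood high within each list. The median over the 62 peaks was 133.6, against 88.4 for the 488 other nuclear thresholded peaks, a ratio of 1.51. Within the strongest peaks of replicate 1 the medians were 66.4 and 44.2 (ratio 1.5), and within those of replicate 2 67.8 and 46.7 (ratio 1.45). By position class the median was 127.3 in same-strand introns, 185.2 in opposite-strand introns, 153.1 at exon overlaps and 134.1 outside genes, with ranges that overlap. The usual width in the thresholded list was 440 bp, and 9 of the 62 snoRNA peaks were narrower (14.5%), at 111 to 295 bp, against 3 of the 488 others (0.615%). Every one of these 9 had a signal of at least 185.2, while the strongest snoRNA peak of full width reached 218.7.

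Each marked locus was looked up in the replicate lists, taking the peak whose summit was within 100 bp. All 63 had such a peak in replicate 1 and 61 in replicate 2. The missing ones were C16D9.10, at 55.7 in replicate 1, and F22D6.16, at 33.8 in replicate 1. Both had a replicate 2 summit in the locus but farther off, the strongest at 45.4 and 30.3. The matched signals ran from 28.1 to 199.1 in replicate 1, with a median of 66.4, and from 19.6 to 203.2 in replicate 2, with a median of 68.1. The ratio of replicate 1 to replicate 2 had a median of 0.980 over the 61 loci (quartiles 0.828 and 1.10), and 55 of them were within 1.5 times. The extremes were Y38F2AR.14 at 44.6 and 81.5 (ratio 0.548) and T08B6.64 at 50.3 and 19.6 (ratio 2.57). Across these loci Spearman's rho of the signals was 0.883, a description over 61 loci chosen for high pooled signal. At these 61 loci the matched summits of the replicates were a median of 27 bp apart, and 51 were within 50 bp.

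**Figure D3:**
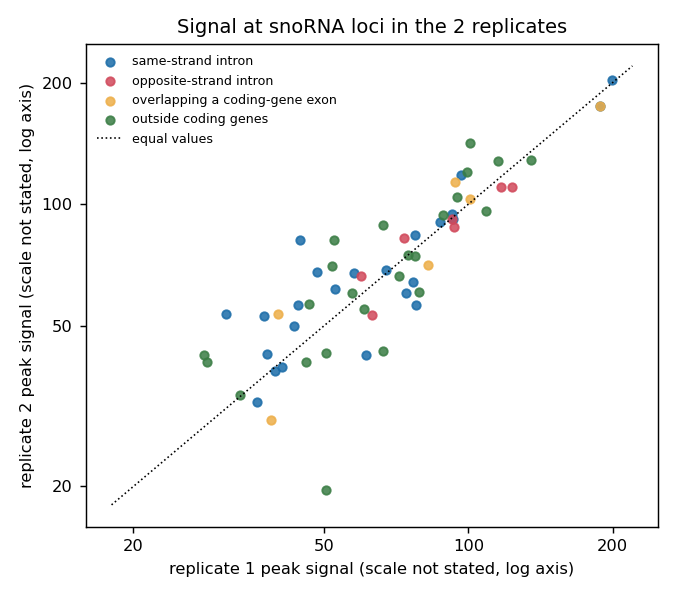
Signal of the matching peak in replicate 1 (x) and replicate 2 (y), on the authors' scale, which is not stated, with both axes logarithmic; each point is 1 of the 61 loci matched in both replicates, coloured by position class, and the dotted line marks equal values. Of the 61 points 55 lie within 1.5 times of the line, and T08B6.64 lies farthest below it, at 50.3 and 19.6.

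In same-strand introns the strongest locus was ZK994.7 (WBGene00044958, V 8500579 to 8500645), in a 341 bp intron of pxn-1, a peroxidasin gene. Its peak, the strongest in the nuclear genome, reached 403.7, beside 199.1 in replicate 1 and 203.2 in replicate 2, and its summit lay at -9 bp. C51F7.3 (WBGene00014290, V 12303708 to 12303783), in an intron of frm-7, followed at 364.0, with 188.5 and 174.7 in the replicates and a summit at -90 bp. Box C and box D were both found in this gene, and its summit lies inside the neighbour C51F7.4, which is annotated from V 12303599 to 12303693 and overlaps an exon. C27H6.5 (V 9970204 to 9970271), in unc-41, had 218.7, with 96.4 and 118.4, and F55A11.10 (V 11782992 to 11783082), in F55A11.6, had 184.9, with 92.5 and 94.5. The replicates differed by less than 1.5 times at each of these loci. The weakest marked locus of all, Y37E3.20 in the pcyt-2.1 gene, was in the same class at 68.0, with 36.3 and 32.3.

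The snoRNA genes of the same-strand class sat in introns of varied size. The host intron had a median length of 284 bp at the 24 marked loci (quartiles 238 and 436 bp) and of 462 bp at the 121 others (229 and 1599 bp). At least 100 bp of intron lay before the snoRNA gene at 17 of 24 marked loci (70.8%) and at 65 of 121 others (53.7%). The marked loci lay a median of 3561.5 bp from the start of the host gene and the others 1430 bp, with wide and overlapping quartiles (1195 to 6050 bp and 546 to 4285 bp). The promoter window of the host held a thresholded summit at 4 of the 24 marked loci, Y37E3.20, Y71F9AM.7, D1046.6 and F55A11.10, and at all 4 it was the same summit that marked the snoRNA locus. No marked locus had a separate summit there. Of the 121 others, 4 had a host promoter summit, with K11H12.12 and K11H12.13 sharing the host rpl-15 and its summit. Among all protein-coding genes, each counted once, 1.06% had a promoter summit. In introns of genes for ribosomal proteins, a group looked at after the values were seen, 3 of 19 loci were marked. That is close to the 24 of 145 (16.6%) of the whole class. The pooled list had a summit at 11 of the 19, beside 63 of the 145 (43.4%). The 3 marked loci were F53G12.12 in rpl-7 (84.8), C16A3.11 in rps-13 (82.8) and Y43B11AR.7 in rps-4 (102.1). Their summits lay at 28, 238 and 305 bp, none of them upstream.

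In opposite-strand introns the strongest locus was T03F7.8 (V 11314258 to 11314332) within cutl-18, at 238.0, where replicate 1 gave 123.3 and replicate 2 gave 110.5, and a summit at -36 bp. B0334.12 (II 11484683 to 11484752), within the potassium channel gene twk-5, had 228.2, with 117.3 and 110.5, and its summit lay at 153 bp, 84 bp past the end of the snoRNA gene. ZK484.9, within haf-9, had 186.5, with 93.5 and 87.9, and C04G6.12 (II 5105157 to 5105231), within mpk-2, had 185.2, with 92.2 and 91.8. T04A8.17 in ppat-1, Y55F3BR.9 in Y55F3BR.2 and C27H5.9 in pdl-1 completed the class, at 157.6, 126.8 and 116.8. In replicate 1 these 7 loci ran from 59.8 to 123.3 and in replicate 2 from 53.1 to 110.5, and none of the 7 hosts had a thresholded summit in its promoter window.

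Outside protein-coding genes the strongest locus was W03C9.9 (II 11960898 to 11960959), a gene with box C and box D, at 263.0, with 135.3 in replicate 1 and 128.6 in replicate 2. ZK265.10 followed at 245.2, with 100.6 and 141.6, then T19B4.8 at 241.5, with 115.5 and 127.9. T06C12.16 (V 15873855 to 15873926) had 217.4, with 99.1 and 120.3. Summits at these 4 loci lay at -88, -64, -49 and -32 bp. The weakest locus of the class was F25H2.15, at 68.4, with 28.4 and 40.5. Among loci that overlap an exon, T02E1.9 in spe-12, a gene for sperm function, had 206.8, with 93.9 and 113.3, and W01C9.6 in glb-27 had 203.6, with 100.7 and 103.2. T27A3.9 in T27A3.8 had 153.1, with 82.3 and 70.6.

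On the X chromosome 1 of 33 loci was marked (3.03%, 95% interval 0.0767 to 15.8), beside 5.53% of all genes on X. On the autosomes the marked loci were 14 of 74 on I (18.9%, 10.7 to 29.7), 12 of 71 on II (16.9%, 9.05 to 27.7), 7 of 54 on III (13.0%, 5.37 to 24.9), 12 of 59 on IV (20.3%, 11 to 32.8) and 17 of 55 on V (30.9%, 19.1 to 44.8). The shares of all genes marked there were 3.5% on I, 2.68% on II, 3.71% on III, 0.929% on IV and 1.87% on V. These shares, and the 2.33% over all nuclear genes, count 15363 piRNA genes among the 46890 genes. Chromosome IV alone holds 19704 genes. Shares without the piRNA genes were not counted. The interval for X includes its share of all genes, those for the autosomes lie above theirs, and the interval for X overlaps each autosomal one except that for V. The locus on X was C53B7.8 (X 6867938 to 6868008), which has box C and box D and stood at 141.6, with replicate values of 79.0 and 60.6. Of the 33 loci on X, 23 lie outside protein-coding genes, and 4 had a summit in the pooled list. The other 3 of these, D2021.6, K09E9.5 and T21F2.3, had pooled signals of 43.8, 31.3 and 34.7.

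The annotation as snoRNA was checked against the boxes of the RNA itself. Box C (TGANGA in the first 25 bases) and box D (CTGA in the last 20) were both present in 30 of the 346 genes, and ACA stood exactly 3 bases before the end in 56. The other 260 genes had neither the C and D combination nor the ACA ending: 14 of them held box C alone, 43 box D alone and 203 neither of these, so for most loci these letters do not give the class of the RNA. Of the 30 with C and D, 11 were marked (36.7%, 19.9 to 56.1), of the 56 with ACA 15 (26.8%, 15.8 to 40.3) and of the other 260 genes 37 (14.2%, 10.2 to 19.1). Of the 11 loci with C and D outside protein-coding genes, 8 were marked: Y39G10AR.24, W03C9.9, F30H5.4, H09I01.2, C46C2.8, F12F6.11, C16D9.10 and C53B7.8. Their signals ran from 69.2 to 263.0. C16D9.10 was counted through a summit 239 bp past its gene end, within 250 bp of a tRNA gene. No replicate 2 summit lay within 100 bp of that summit. In same-strand introns the same boxes stood in 14 loci, of which F55A11.10 and C51F7.3 were marked. Marked genes were annotated as shorter, with a median of 80 bp (quartiles 71 and 132) against 133 bp (106 and 171) for the others.

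Elements of tRNA-type promoters were searched from 250 bp upstream to 50 bp downstream of the gene start, on both strands, with the share of all nuclear genes holding the same letters as a background. The strict box B, GTTCGANNC, was found at 19 of 63 marked loci (30.2%, 19.2 to 43), at 8 of 283 others (2.83%, 1.23 to 5.49) and at 2.51% of all genes. Its core, GTTCGA, which every strict box B contains, was found at 23 marked loci (36.5%), 31 others (11.0%) and 10.3% of genes. The strict box A, TGGNNNAGT, was found at 21 marked loci (33.3%, 22 to 46.3), at 44 others (15.5%, 11.5 to 20.3) and at 10.5% of all genes. In opposite-strand introns 0 of 7 marked loci held GTTCGA, and 4 held the strict box A.

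Other letters differed less. The E-box CACGTG was found at 5 of 63 marked loci (7.94%, 2.63 to 17.6), at 17 of 283 others (6.01%, 3.54 to 9.44) and at 4.14% of all genes. The 5 were ZK484.9, C27H5.9, F19H8.6, H09I01.2 and F09G2.14, with signals of 186.5, 116.8, 134.9, 153.0 and 69.1. TATAAA was found at 21 marked loci (33.3%), 65 others (23.0%) and 37.4% of all genes. A run TTTT within 100 bp after the gene was found at 59 of 63 marked loci (93.7%, 84.5 to 98.2), 223 of 283 others (78.8%, 73.6 to 83.4) and 80.4% of all genes. It was present at all 24 marked loci in same-strand introns.

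Read in the same window and on the strand of the gene, the looser box A followed 25 to 80 bases later by the looser box B formed a pair at 27 of 346 snoRNA loci and at 95 of the 46884 nuclear genes with a readable window (0.203%), so snoRNA genes supplied 27 of the 95. The letters came from the marked loci themselves, so the pair describes those loci. It was found at 21 of 63 marked loci (33.3%, 22 to 46.3) and at 6 of 283 others (2.12%, 0.782 to 4.56). C51F7.3 and C51F7.4 share the pair's box A and are counted as separate loci. Put the other way, 21 of the 27 loci with the pair were marked (77.8%, 57.7 to 91.4) and 42 of the 319 without it (13.2%, 9.66 to 17.4). The strongest peaks of replicate 1 marked 22 of 27 and 40 of 319, and those of replicate 2 marked 21 of 27 and 41 of 319. In the pooled list 24 of 27 had a summit, against 116 of 319 (36.4%).

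**Figure D4:**
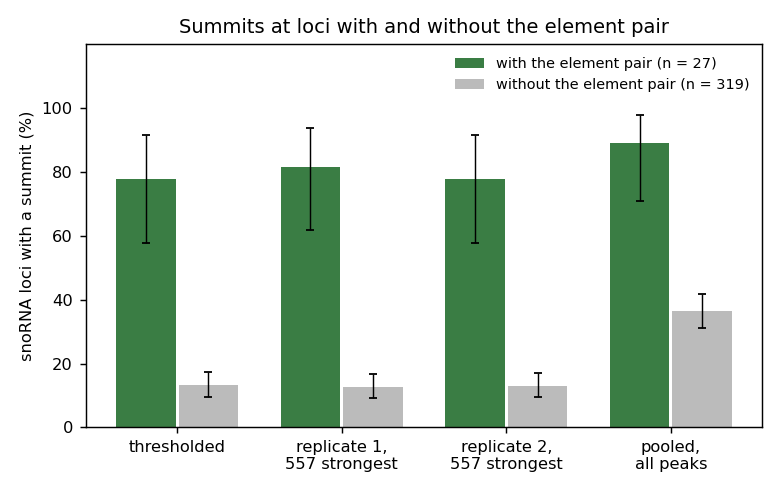
Share of snoRNA loci with a summit (percent) in 4 peak lists, for loci with and without the pair of box A and box B. Bars are shares and whiskers exact 95% intervals over loci. The 27 loci with the pair stand at 77.8 to 88.9%, the 319 without it at 12.5 to 36.4%. The letters of the pair came from marked loci, and the lists come from the same replicates, so the shares only describe these loci.

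The pair occurred in all 4 position classes, including opposite-strand introns. Of the loci holding it, 7 of 10 were marked in same-strand introns, 3 of 5 in opposite-strand introns, 2 of 2 at exon overlaps and 9 of 10 outside genes. Without it the counts were 17 of 135, 4 of 22, 5 of 48 and 16 of 114. By the boxes of the RNA, all 6 loci with C, D and the pair were marked, 12 of 13 with neither this combination nor ACA (9 of the 13 hold box C or box D alone), and 3 of 8 with ACA, these being T08B2.13 in fars-1 (signal 162.9), Y43F8C.22 (133.1) and C05D2.15 in madf-11 (113.8). Marked loci with the pair had a median signal of 184.9 and those without it 119.3, with 92.2 and 60.2 in replicate 1 and 87.9 and 58.3 in replicate 2. The ranges overlap, at 69.2 to 364.0 with the pair and 68.0 to 403.7 without it. The letters of the pair came from marked loci, so these medians only describe the loci. C51F7.3 and C51F7.4, both with the pair, share the peak at 364.0, which is counted for each.

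The geometry of the pair was regular. Over the 27 loci the first base of box A lay at a median of -58 bp (quartiles -61.5 and -54.5) and that of box B at -14 bp (-16.5 and -11). The spacing had a median of 44 bases (quartiles 44 and 45), and 22 of the 27 had 43 to 46. C51F7.4 was the exception in place, with box A at 10 bp and box B at 39 bp, inside the annotated gene. In tRNA genes the same letters formed a pair inside 338 of 612 genes (55.2%), again with a median spacing of 44 bases. At the 21 marked snoRNA loci the summit lay a median of 19 bp after the first base of box A and 20 bp before that of box B, and at 13 of the 21 it fell between them. T03F7.8, printed above, is an example, with box A at -55 bp, the summit at -36 bp and box B at -11 bp. At tRNA loci with a pair inside the gene, the summit fell between the elements at 57 of 163. From the gene start, the median summit position was -30 bp at the 21 marked snoRNA loci with the pair, 16 of them upstream. At the 42 marked loci without the pair it was similar, -26.5 bp, with 28 upstream.

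**Figure D5:**
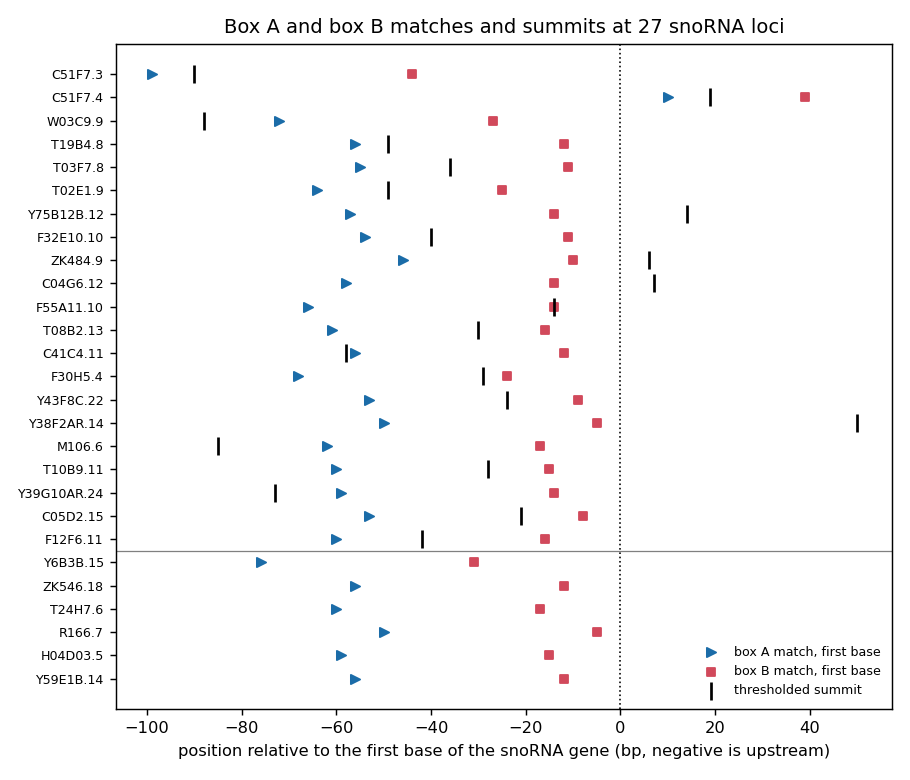
Positions of the box A and box B matches (first base) and of the thresholded summit relative to the first base of the snoRNA gene (bp, negative is upstream) at the 27 loci with the pair, ordered by signal; the grey line separates the 21 marked loci above from the 6 others below. The elements line up near -58 and -14 bp in both sets, and at 13 of the 21 marked loci the summit falls between them. The 42 marked loci without the pair, not shown, had a median summit position of -26.5 bp, beside -30 bp at these 21.

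The 6 loci with the pair and no thresholded summit were ZK546.18, T24H7.6, R166.7, Y6B3B.15, H04D03.5 and Y59E1B.14. ZK546.18 in mdt-4, a Mediator subunit gene, ranked 558 in the pooled list at 67.6, just below the thresholded list, with 52.1 in replicate 1 and 19.3 in replicate 2. R166.7 in mnk-1 had a pooled signal of 46.8 and 42.3 in replicate 1, and no summit in replicate 2. T24H7.6 in T24H7.2 had 45.2, with 24.6 and 19.1. The other 3 had no summit in any of the lists, and H04D03.5 and Y59E1B.14 hold the pair at the usual spacing of 44 bases. Of the 6, 5 have the ACA ending.

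Marked loci without the pair were a mixed set. Of all 63, 43 held at least 1 of the looser elements, and 20 held neither, among them ZK994.7. The looser box A was found at 37 marked loci (58.7%), 39 others (13.8%) and 7.14% of all nuclear genes. The looser box B was found at 27 marked loci (42.9%), 24 others (8.48%) and 5.12% of all nuclear genes. Over all loci, 43 of 98 with an element were marked (43.9%, 33.9 to 54.3) and 20 of 248 with none (8.06%, 5.00 to 12.2). The looser letters came from marked loci, so these shares too only describe the loci. Among the 32 stronger marked loci 27 had an element and 14 the pair, and among the 31 weaker 16 and 7. None of the 7 loci with a summit beyond the end of the gene held the pair. These were, with the distance past the gene end, F22D6.16 (27 bp), Y55F3BR.9 (43 bp), B0334.12 (84 bp), C16A3.11 (105 bp), C24A1.8 (152 bp), C16D9.10 (239 bp) and Y43B11AR.7 (247 bp). The last 2 lay just inside the 250 bp margin, at signals of 85.5 and 102.1, and the nearest loci outside it were F39B2.14 at 303 bp and C27H5.10 at 355 bp.

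Among loci without a thresholded summit, the strongest in the pooled list after ZK546.18 were W04D2.7 in inx-11 at 63.4 (21.9 in replicate 1 and 40.5 in replicate 2), T26A8.6 at 63.3 (36.4 and 32) and C08D8.3 in C08D8.1 at 62.6 (19.3 and 44.2). In all, 9 unmarked loci were among the strongest 557 peaks of a single replicate, and 2 marked loci, F09G2.14 and F22D6.16, were among those of neither. F09G2.14 stood at 69.1, and its replicate values were 33.3 and 33.7.

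No thresholded summit was found in the promoter windows of the genes for proteins that work with snoRNAs. Both lists are short, and at a background of 1.06% a count of 0 says nothing particular about these genes. Of 8 genes for core snoRNP proteins (fib-1, nol-56, nol-58, snu-13, dkc-1, garr-1, nola-3 and Y48A6B.3), 0 had a thresholded summit in the promoter window (interval up to 36.9%), against 1.06% of all protein-coding genes. In the pooled list 3 of the 8 had one (37.5%, 8.52 to 75.5), against 23.0% of protein-coding genes. In the full list of replicate 1 the count was 6 of 8 (75%, 34.9 to 96.8, against 29.8%) and in that of replicate 2 it was 4 of 8 (50%, 15.7 to 84.3, against 31.1%). The pooled ones were nol-58, a box C/D protein, at 47.9 (24.4 in replicate 1 and 26 in replicate 2), dkc-1, the pseudouridine synthase, at 39.5 (15.2 and 19.6), and nola-3 at 33.1 (18.8 and 18.5). Of 16 genes for proteins that direct transcription of small RNA genes (snpc-, tftc-, rpc- and brf- genes and tbp-1), 0 had a thresholded summit (up to 20.6%). In the pooled list 5 had one, at 26.6 to 34.3 (31.25%, 11.0 to 58.7, against 23.0% of protein-coding genes). Each full replicate list had a summit at 6 (37.5%, 15.2 to 64.6), against 29.8% in replicate 1 and 31.1% in replicate 2.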

How the data were processed

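The deposited narrowPeak lists on ce11 were used as the authors made them, and the deposited peak signal, on a scale not stated, was used only within a list. Per the deposited file descriptions, lists were called for each replicate and on both together, and the thresholded list passed the authors' test of reproducibility. Aligner and peak caller: not given in the sources used here. A further source file named there and the lists on ce10 were not used here. Depth is unknown. Summits were the start plus the deposited summit offset, in 1-based coordinates.

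The gene annotation was Ensembl release 115 and the sequence that of RefSeq, on WBcel235. A locus within the span of a protein-coding gene and clear of its exons was intronic, and same-strand hosts took precedence. No test was made, since there is 1 group of 2 replicates: shares carry exact (Clopper-Pearson) 95% intervals. The scripts were tested on simulated data. Named loci were the 10 strongest, the 4 strongest of each class, the 2 weakest, those next to the margin, the 4 strongest unmarked ones and those on X; other names were chosen after values were seen. The loci, motifs and gene lists were chosen with earlier results of these data known, and the looser elements after reading the sequences. Alternatives varied the margin, list, class rule, search window and replicate. The work was done in Python 3.11.15 with pandas 2.3.3, numpy 2.4.6, scipy 1.17.1 and, for plots, matplotlib 3.10.9.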

Additional observations from a re-analysis of the deposited data

How the results depend on the processing

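Over 92 alternatives to 18 results, 78 kept the value within the set bounds, 14 moved it and 0 reversed it. The margin mattered most: with no margin around the gene, 12 loci were marked (4 in same-strand introns, 3 in opposite-strand introns, 2 at exon overlaps and 3 outside genes), since most summits lie before the gene. Margins of 100 and 500 bp gave 59 and 67. Counting a gene as intronic when it is so in at least 1 transcript left 4 marked loci at exon overlaps. With the search window widened to 500 bp upstream, the strict box A was found at 32 marked loci, TATAAA at 32 and CACGTG at 8. The strict box B stayed at 19. With the window cut to 100 bp, TATAAA was found at 8 and CACGTG at 2. The strict box A fell to 17 there, the strict box B from 19 to 13 and GTTCGA from 23 to 17, which the set bounds count as kept. Shares at other loci and over all genes were not counted in these windows, so the changes cannot be read as particular to marked loci. A promoter window of 2000 bp added 1 gene of the protein lists, dkc-1, at a signal of 80.8. With either replicate left out, the ratio of medians was 1.45 to 1.5 and the median summit position -34.5 to -29 bp.

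The alternatives that leave out loci near a tRNA gene (62 marked loci) and that narrow the pair's spacing to 35 to 55 bases (20 marked loci) were chosen after seeing the data, as were the looser elements. No paired analysis was possible because both replicates belong to 1 group. Depth and the scale of the signal are unknown, so a locus without a summit may hold binding below what these lists report, and overlapping snoRNA genes share summits (62 of 325 merged regions were marked).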

Other observations

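The pair of elements was also found in the search window of genes of other biotypes, from 250 bp upstream to 50 bp inside the gene. Of the 95 nuclear genes with it, 27 were snoRNA genes, 30 ncRNA genes, 22 protein-coding, 6 piRNA, 4 miRNA, 3 pseudogenes, 2 lincRNA genes and 1 a tRNA gene. The window ends 50 bp into the gene, whereas over the whole gene 338 of 612 tRNA genes held the pair. These genes can overlap or neighbour one another and thus share a pair, and their peaks were not examined.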
